A study of Mus musculus with 7 samples.

Results

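The 10 genes followed here are used as markers that define mesenchymal stem and stromal cells of the marrow: Nt5e, Thy1, Eng, Ly6a, Cd44, Cd200, Alcam, Ngfr, Bst1 and Nes. They were chosen by name, from their use as markers, and all 10 have a row among the 53801 gene IDs of the count tables. Of the 10 genes, 7 had at least 1 count and 3 had 0 counts in all 7 libraries. Only 5 (Nt5e, Eng, Ly6a, Cd44 and Cd200) had enough counts to pass the filter on low counts and be tested.

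The RNA came from bone marrow mesenchymal stromal cells of male C57BL/6 mice that were 8 weeks old when dosing began. One group of 3 mice received 100 µl of DPBS, the buffered saline vehicle, and the other group of 4 mice received a fibroblast activation protein inhibitor (FAPi) at 500 µg/kg in the same volume. Both were injected intraperitoneally each day for 35 days, and the labels give no transgene or deleted allele. The cells were taken from digested marrow of limb bones by flow cytometry as live cells (DAPI-, Calcein-AM+) that lacked CD45, Ter119 and Tie2 and carried Pdgfra, 7000 cells per sample. A surface gate on Pdgfra thus came before every value given here, and it is shared by both groups.

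Surface markers serve to isolate stromal cells because no single protein is found on all of them and on no other cell. In human cultures the ecto-nucleotidase CD73 (Nt5e), the glycoprotein CD90 (Thy1) and the co-receptor CD105 (Eng) form the standard panel, while in mouse bone Sca-1 (Ly6a) together with Pdgfra marks a stromal population near the bone surface and the arterioles. The leptin receptor marks another, more abundant perivascular population, which makes most of the CXCL12 of the marrow. Nestin (Nes) is an intermediate filament inside the cell and not a surface protein; it stands among these markers because a Nes reporter transgene labels perivascular marrow cells.

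Libraries held 7492570 to 10569690 gene counts. Levels are given as CPM, the share of a library's counts scaled to 1000000, after TMM scaling, which corrects library size for differences in composition. A count of 3, taken as the lowest reliable level, corresponds to 0.267 to 0.417 CPM, depending on the library. Total counts were 9228260 or more in DPBS and 9226841 or fewer in FAPi libraries. Of the sort genes, Pdgfra was abundant, and Ptprc and Tek were low. Pdgfra spanned 315 to 364 CPM in DPBS and 381 to 438 CPM in FAPi libraries, without overlap but not past the test (edgeR, log2 difference 0.22 ± 0.21, SE, adjusted p = 0.836). Of all tested genes, 3.4% had FAPi levels above all DPBS levels. On total counts alone, without TMM scaling, the Pdgfra levels of the groups overlapped. Ptprc, which encodes CD45, had 0.267 to 5.26 CPM and Tek, which encodes Tie2, had 0 to 1.60 CPM. Markers of erythroid cells, which the Ter119 gate excludes, were nevertheless read, with sums of 1667 to 15176 CPM in DPBS and 1550 to 3080 CPM in FAPi libraries. The target gene Fap was read in every library, with a mean of 193 ± 19.7 CPM (SD) over the 3 DPBS mice and 235 ± 28.5 CPM over the 4 FAPi mice (edgeR, log2 difference 0.29 ± 0.23, SE, adjusted p = 0.799), a transcript level that does not measure inhibition of the enzyme.

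RefSeq promoter windows on build GRCm38.p6, from 250 bases before to 50 bases after a gene's start, were found for 7 of the 10 genes, and not for Ly6a, Thy1 and Bst1. The windows are shown for Cd200 and Cd44, which had the highest levels per length among those 7 genes, and for Ngfr and Nes, which had no counts, so that the starts of read and unread genes can be set side by side. Capitals mark the GC box (GGGCGG, searched on both strands), which is a binding sequence of Sp1.
Cd200, chr16:45409004-45409303, minus strand: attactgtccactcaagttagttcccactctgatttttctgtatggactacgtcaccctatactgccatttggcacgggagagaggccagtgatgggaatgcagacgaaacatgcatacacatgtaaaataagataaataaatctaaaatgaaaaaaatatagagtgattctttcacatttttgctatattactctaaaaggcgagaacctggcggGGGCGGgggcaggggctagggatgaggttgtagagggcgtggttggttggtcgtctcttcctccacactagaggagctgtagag
Cd44, chr2:102901616-102901915, minus strand: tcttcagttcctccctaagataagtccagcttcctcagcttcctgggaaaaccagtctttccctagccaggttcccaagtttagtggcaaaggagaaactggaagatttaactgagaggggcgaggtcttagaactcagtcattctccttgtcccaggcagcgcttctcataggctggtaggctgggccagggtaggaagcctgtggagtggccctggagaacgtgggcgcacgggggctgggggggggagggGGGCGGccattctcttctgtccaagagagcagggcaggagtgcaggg
Ngfr, chr11:95587649-95587948, minus strand: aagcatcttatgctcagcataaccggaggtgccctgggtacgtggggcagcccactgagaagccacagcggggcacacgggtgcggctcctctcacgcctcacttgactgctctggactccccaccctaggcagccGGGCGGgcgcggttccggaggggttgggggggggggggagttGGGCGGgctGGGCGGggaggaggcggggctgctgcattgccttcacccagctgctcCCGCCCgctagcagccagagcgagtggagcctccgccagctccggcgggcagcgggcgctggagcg
Nes, chr3:87970843-87971142, plus strand: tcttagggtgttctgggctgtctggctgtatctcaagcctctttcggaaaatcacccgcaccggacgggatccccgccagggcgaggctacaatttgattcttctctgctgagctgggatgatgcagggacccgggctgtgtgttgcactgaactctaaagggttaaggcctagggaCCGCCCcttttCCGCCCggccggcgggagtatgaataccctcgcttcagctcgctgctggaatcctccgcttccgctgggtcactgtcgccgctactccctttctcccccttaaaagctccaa
The windows of the genes without counts were the richer in CpG, with 23 CpG in Ngfr and 18 in Nes, against 8 in Cd200 and 6 in Cd44. The median over all 32851 promoter windows of the table was 7. The Cd200 window was the poorest of the 7 in G and C, at 45.0%, against 71.7% in Ngfr and a median of 52.7% over all windows. A GC box was present in 6 of the 7 windows, all but that of Eng, and in 35.7% of all windows. TATAAA was in 0 of the 7 and in 13.6% of all windows, and CCAAT was in 1 of the 7, that of Alcam, and in 37.4% of all windows. Among the windows not printed, Alcam had 25 CpG, Nt5e 23 and Eng 6. Nt5e, which was read in all 7 libraries, and Alcam, which was hardly read, had nearly equal CpG numbers. These matches describe letters in a window and show no binding.

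**Figure D1:**
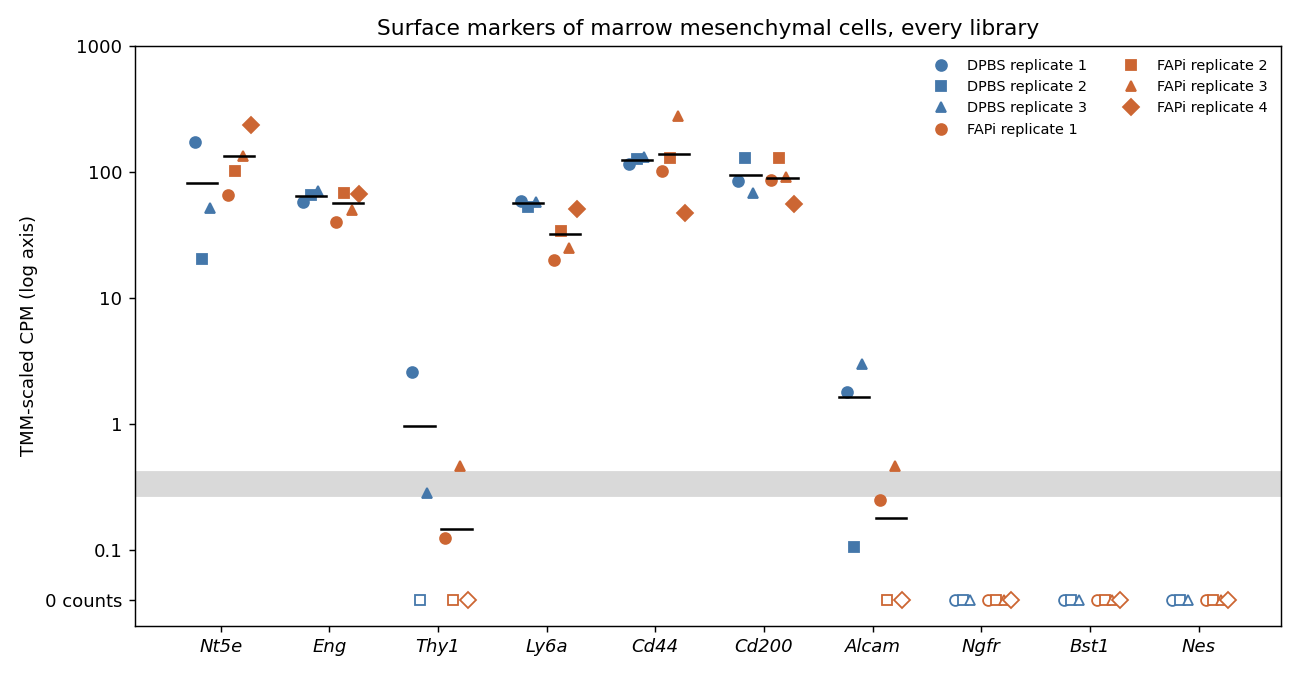
TMM-scaled CPM of the 10 markers in each library, on a log axis, with DPBS in blue and FAPi in orange, and black bars at the group means. Open symbols on the lowest line are libraries with 0 counts and the grey band is the level of 3 counts; 5 markers lie at or above 19.9 CPM in every library, Thy1 and Alcam lie around the band, and Ngfr, Bst1 and Nes have no count.

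The CD73, CD105 and CD90 panel was divided. Nt5e and Eng were read in all 7 libraries, and Thy1 was at or near the level of 3 counts in 6 of the 7. Nt5e (ENSMUSG00000032420.8, chromosome 9, 88327197 to 88372092, plus strand, mm10) encodes the enzyme that turns extracellular AMP into adenosine. It had 172, 20.2 and 52.0 CPM in DPBS replicates 1 to 3 and 65.2, 102, 133 and 235 CPM in FAPi replicates 1 to 4. The groups overlapped because DPBS replicate 1 stood above 3 of the 4 FAPi libraries, and the highest library had 11.7 times the level of the lowest. This was the widest range among the 5 tested markers. The means were 81.3 ± 79.9 CPM (SD, n = 3) and 134 ± 73.0 CPM (SD, n = 4). The log2 difference, FAPi minus DPBS, was 0.72 ± 0.65 (SE, 95% interval -0.71 to 2.14), which did not pass the test across 12930 genes (edgeR quasi-likelihood test, Benjamini-Hochberg adjusted p = 0.823). Without DPBS replicate 1 the difference was 1.88 and still did not pass (edgeR adjusted p = 0.568), and the groups then no longer overlapped, as was the case, with higher FAPi levels, for 7.64% of all tested genes in that setting. Without DPBS replicate 2 it was 0.26 (edgeR adjusted p = 0.985), and without FAPi replicate 4 it was 0.30 (edgeR adjusted p = 0.950). The estimate of Nt5e thus depended on single libraries of both groups.

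Eng (ENSMUSG00000026814.16, chromosome 2, 32646595 to 32682669, plus strand, mm10) encodes a co-receptor that presents BMP9 and BMP10 to their receptors and is abundant on endothelium. Its levels were 57.7, 65.4 and 70.7 CPM in DPBS and 40.3, 68.4, 49.9 and 66.3 CPM in FAPi libraries. All FAPi values but those of replicates 1 and 3 fell inside the DPBS range, and the highest library had 1.76 times the lowest, the narrowest range of the 5. The log2 difference was -0.20 ± 0.33 (SE, 95% interval -0.93 to 0.52, edgeR adjusted p = 0.922), and it was -0.07 without FAPi replicate 1 and -0.32 without FAPi replicate 2. Of its merged exon bases, 1.51% overlap those of Fpgs on the other strand, and which strand setting was used in counting is not stated in the sources used here. Summed endothelial markers were 69.8 to 252 CPM in DPBS and 61.4 to 397 CPM in FAPi libraries, and FAPi replicate 1, which had the highest endothelial sum (339 CPM of it from the VEGF receptor gene Kdr), had the lowest Eng level.

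Thy1 (ENSMUSG00000032011.5, chromosome 9, 44043384 to 44048579, plus strand, mm10) encodes a small GPI-anchored glycoprotein of neurons, thymocytes and fibroblasts. It had 29, 0 and 3 counts in DPBS and 1, 0, 4 and 0 counts in FAPi libraries, 37 in all. DPBS replicate 1 thus held most of its counts, at 2.58 CPM, while no other library exceeded 0.464 CPM. Thy1 did not pass the filter on low counts. In a fit with no such filter, over 20545 genes, it did not pass the threshold (edgeR, adjusted p = 0.614).

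Ly6a was the only 1 of the 10 markers whose groups did not overlap, and its difference did not pass the test. Ly6a (ENSMUSG00000075602.10, chromosome 15, 74994877 to 74998031, minus strand, mm10) encodes Sca-1, a GPI-anchored Ly6 protein of mouse hematopoietic stem cells, endothelium and some stromal cells. It had 59.0, 52.5 and 57.9 CPM in the DPBS replicates and 19.9, 33.8, 25.1 and 50.6 CPM in the FAPi replicates. Every FAPi library was below every DPBS library, with FAPi replicate 4 the closest to them. The means were 56.5 ± 3.50 CPM (SD, n = 3) and 32.3 ± 13.5 CPM (SD, n = 4), and the coefficient of variation was 6.21% among DPBS and 41.7% among FAPi libraries. The log2 difference was -0.81 ± 0.40 (SE) with a 95% interval of -1.68 to 0.07 (edgeR, unadjusted p = 0.0677, adjusted p = 0.645). By unadjusted p Ly6a ranked 1356 of 12930 genes. Of all tested genes, 3.94% had FAPi levels below all DPBS levels as Ly6a did, and 7.34% had groups that did not overlap in either direction.

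Other quantities differed between the libraries alongside Ly6a. Total counts did not overlap between the groups either, and were higher in DPBS. Summed markers of neutrophils were 609 to 2627 CPM in DPBS and 187 to 631 CPM in FAPi libraries, and those of erythroid cells were 1667 to 15176 and 1550 to 3080 CPM, both with the highest value in DPBS replicate 2. Without that replicate the Ly6a difference was -0.86, while the DPBS means of the neutrophil and erythroid sums were then 1188 and 3905 CPM, still above the FAPi means of 495 and 2465 CPM. Summed markers of hematopoietic stem and progenitor cells, a population that carries Sca-1, were 84.1 to 209 CPM in DPBS and 45.8 to 163 CPM in FAPi libraries. Much of that sum was the single gene Meis1, with means of 93.7 of 146 CPM in DPBS and 50.9 of 111 CPM in FAPi libraries. The endothelial sum was highest, at 397 CPM, in FAPi replicate 1, which had the lowest Ly6a level. Of that sum, 339 CPM came from the single gene Kdr, which had at most 15.5 CPM in any other library. Summed fibroblast markers of periosteum and adventitia were 1559 to 2291 CPM and 1324 to 2642 CPM, all 15 of them but Tnxb read in at least 1 library. Much of that sum was Dcn and Fbn1, with means of 851 and 566 of 1908 CPM in DPBS libraries. In FAPi libraries they were 818 and 475 of 1783 CPM. Of the 12 genes of this list that were tested, 8 had lower estimates in FAPi libraries, Cd248 among them, and 0 were called. The sum therefore says little about its less abundant genes. The part of these quantities in the Ly6a values was not tested. In RNA of sorted cells in bulk, fewer Ly6a-positive cells and less Ly6a RNA per cell cannot be told apart.

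Reads of Ly6a can be hard to assign, since the Ly6 genes are near relatives. Of its 1297 distinct 50-base transcript windows, 246 (19.0%) also occur in transcripts of Ly6c1, Ly6c2, Ly6i or I830127L07Rik, and at 150 bases, the length of 1 read, 0 windows were shared. No window of Thy1, Cd44, Cd200 or Nes was shared at 50 bases, and at most 2.11% of those of the other markers. Fragments trimmed or cut short could thus still be shared for Ly6a.

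Cd44 and Cd200, adhesion and signalling proteins of the cell surface, had group means of 124 and 139 CPM and of 93.7 and 90.2 CPM in DPBS and FAPi mice, and Alcam was hardly read. Cd44 (ENSMUSG00000005087.17, chromosome 2, 102811141 to 102901665, minus strand, mm10) encodes the main receptor for hyaluronan. It had 114, 126 and 132 CPM in DPBS and 102, 129, 277 and 47.1 CPM in FAPi libraries. The DPBS values lay close together, and FAPi replicates 3 and 4 lay above and below all other libraries. The coefficient of variation was 7.03% in DPBS and 70.7% in FAPi libraries, a difference in spread that was not tested. The log2 difference of 0.16 ± 0.48 (SE, 95% interval -0.90 to 1.22) did not pass (edgeR adjusted p = 0.969), and without FAPi replicate 3 it was -0.41 (edgeR adjusted p = 0.844). Leukocytes also carry CD44. The summed pan-leukocyte markers were 38.3 CPM in FAPi replicate 3 and 22.9 CPM in FAPi replicate 4, the lowest sum of the 7 libraries. They were highest in DPBS replicate 2, at 147 CPM, and FAPi replicate 1, at 137 CPM, where Cd44 was at 126 and 102 CPM. FAPi replicate 4 had both the lowest Cd44 and the lowest pan-leukocyte sum. FAPi replicate 3 had the highest Cd44 and a pan-leukocyte sum below those of all DPBS libraries. The part of leukocyte RNA in the Cd44 values was not tested. Summed T and NK cell markers were highest in FAPi replicate 3, at 23.3 CPM, of which the kinase gene Lck had 21.7 CPM, while Cd3d, Cd3e, Cd8a, Klrb1c and Trac had no counts in any library.

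Cd200 (ENSMUSG00000022661.14, chromosome 16, 45382135 to 45409053, minus strand, mm10) encodes a ligand that restrains myeloid cells through the CD200 receptor, and it is one of the markers of mouse skeletal stem cells. Its levels were 84.8, 129 and 67.6 CPM in DPBS and 86.6, 128, 90.5 and 55.6 CPM in FAPi libraries. DPBS replicate 2 and FAPi replicate 2 were the highest and FAPi replicate 4 the lowest, so that both groups covered nearly the same range. The log2 difference was -0.06 ± 0.36 (SE, 95% interval -0.85 to 0.74, edgeR adjusted p = 0.987), and it was 0.24 without DPBS replicate 2. Near-equal means do not show equal levels at this precision, as the width of the interval shows.

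Alcam (ENSMUSG00000022636.13, chromosome 16, 52248996 to 52454074, minus strand, mm10) encodes CD166, an adhesion protein that binds itself and CD6. It had 20, 1 and 32 counts in DPBS and 2, 0, 4 and 0 counts in FAPi libraries. DPBS replicates 1 and 3 held 1.78 and 3.00 CPM, above every other library, and DPBS replicate 2, at 0.105 CPM, lay inside the FAPi range. Alcam was too low for the filtered test, and without the filter its p was 0.0906 before and 0.553 after adjustment over 20545 genes by edgeR. Both low markers thus had their highest library in the DPBS group, Thy1 in replicate 1 and Alcam in replicate 3, at counts that allow no firm difference.

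The remaining markers, Ngfr, Bst1 and Nes, had 0 counts in every one of the 7 libraries, among 62585239 gene counts in all. Ngfr (ENSMUSG00000000120.6, chromosome 11, 95568818 to 95587735, minus strand, mm10) encodes the low-affinity neurotrophin receptor CD271, by which human marrow stromal cells are enriched. Bst1 (ENSMUSG00000029082.17, chromosome 5, 43818885 to 43843986, plus strand, mm10) encodes CD157, a GPI-anchored enzyme that cleaves NAD. Nes (ENSMUSG00000004891.16, chromosome 3, 87971078 to 87980451, plus strand, mm10) encodes nestin. A count of 0 allows a level of up to 0.267 to 0.417 CPM by library, and per kilobase of merged exon sequence up to 0.0776 to 0.121 for Ngfr, 0.0806 to 0.126 for Bst1 and 0.0417 to 0.0650 for Nes. A row of 0 was common in these tables. Of 21890 protein-coding gene IDs, 35.7% had 0 counts in all 7 libraries, while each of 20 housekeeping genes had at least 9 counts in each library. Those 20 genes were read very unevenly, with 9 to 101 counts for Pgk1, 351 to 752 for Gapdh and 375571 to 1088804 for Actb. Whether a low transcript was lost in library preparation or counting was not tested. Bst1 shares 2.95% of its exon bases with Fbxl5 on the other strand. The Schwann cell genes Sox10, Cdh19 and Gjc3 also had no counts.

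**Figure D2:**
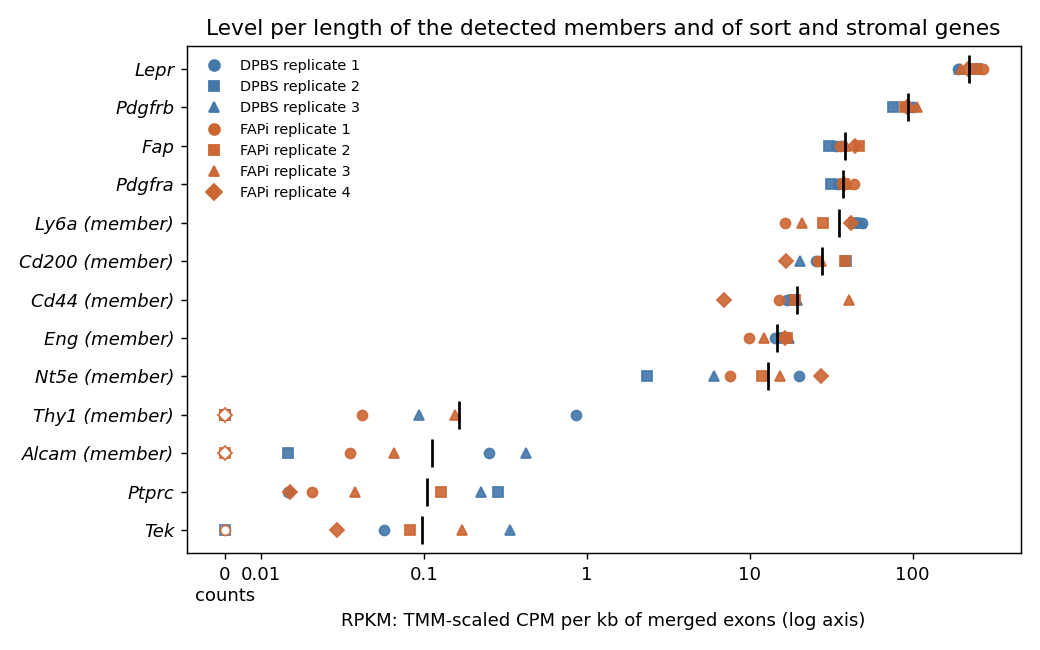
Level per length (RPKM, here TMM-scaled CPM per kilobase of merged exons) of the 7 markers with a count and of 6 stromal and sort genes, on a log axis, with 1 symbol per library and a black bar at the mean of the 7 libraries. Ly6a has the highest mean of the markers at 35.4 RPKM, Lepr stands at 223 RPKM, and Thy1 and Alcam lie beside Ptprc and Tek.

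Between genes, levels were compared per length, as CPM per kilobase of merged exons (RPKM). Over the 7 libraries the order was Ly6a with 35.4 ± 13.4 RPKM (SD), Cd200 with 27.6 ± 8.39, Cd44 with 19.6 ± 10.3, Eng with 14.8 ± 2.76 and Nt5e with 12.9 ± 8.69 RPKM. Each neighbouring pair in this order overlapped in range. Ly6a was above Cd200 in 3 of 3 DPBS libraries but in only 1 of 4 FAPi libraries, where the means were 26.8 and 27.2 RPKM. Eng was above Nt5e in 2 of 3 DPBS and 2 of 4 FAPi libraries, and in FAPi the mean of Nt5e (15.6 RPKM) was above that of Eng (13.9 RPKM). Cd200 was above Cd44 and Cd44 above Eng in 6 of 7 libraries. Below these 5 came a gap: Nt5e was above Thy1 in 7 of 7 libraries without overlap, and Thy1 and Alcam had means of 0.165 and 0.112 RPKM. A single library carried much of each, since Thy1 was 0.0485 RPKM without DPBS replicate 1 and Alcam 0.0609 RPKM without DPBS replicate 3. Over all 7 libraries, those means stood at percentiles 11.6 and 9.34 of the 14067 protein-coding genes with a count, close to Ptprc (0.104 RPKM) and Tek (0.0970 RPKM), whose proteins were gated out. The 5 abundant markers stood between percentiles 80.7 and 91.5, below Lepr with 223 and Pdgfrb with 93.3 RPKM. By group, Ly6a had 46.9 RPKM in DPBS and 26.8 RPKM in FAPi libraries, where Pdgfra had 34.2 and 39.9 RPKM and Fap 34.0 and 41.6 RPKM. With the longest transcript as the length in place of merged exons, Nt5e had 27.9 and Cd200 39.1 RPKM, which put Nt5e above Cd44 (23.6) and Eng (17.5), and Ly6a had 44.7 RPKM against 55.0 for Pdgfra and 75.7 for Fap.

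**Figure D3:**
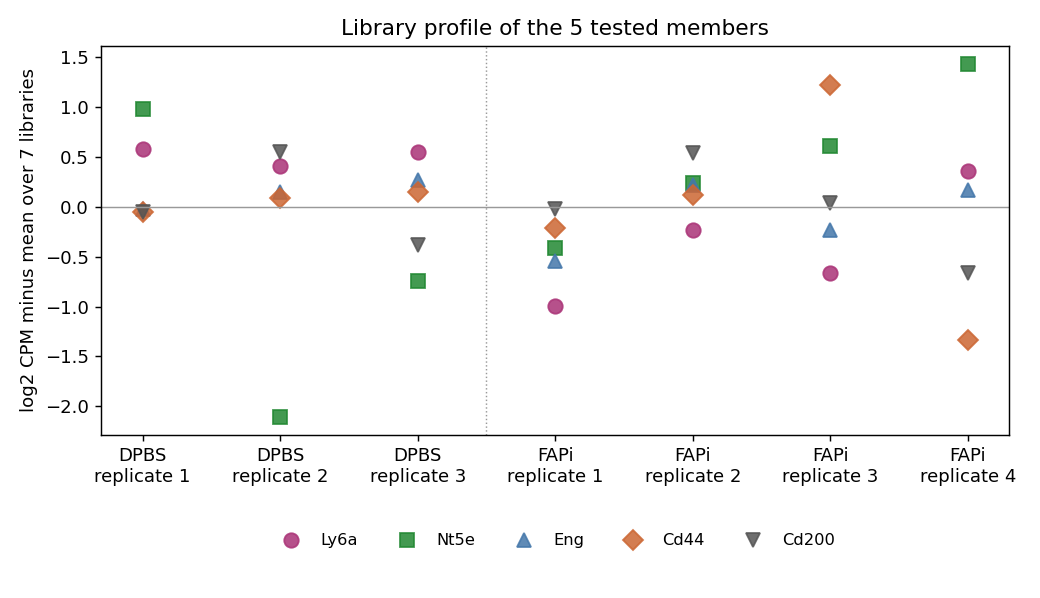
Difference of each library from the mean of the 7 libraries, in log2 CPM, for the 5 tested markers, with DPBS libraries left and FAPi libraries right of the dotted line. Ly6a is above its mean in the 3 DPBS libraries, Nt5e spans -2.11 in DPBS replicate 2 to 1.44 in FAPi replicate 4, and the 5 markers do not move together from library to library.

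The 5 tested markers did not share a profile over the libraries. FAPi replicate 4 had the highest Nt5e and the lowest Cd44 and Cd200. FAPi replicate 3 had the highest Cd44 and was sixth for Ly6a and Eng, while FAPi replicate 1 had the lowest Ly6a and Eng. DPBS replicate 2 had the highest Cd200 and the lowest Nt5e, and DPBS replicate 1 was the highest for Ly6a and the second highest for Nt5e. On the log2 scale, the widest deviations from a gene's mean were -2.11 for Nt5e in DPBS replicate 2, 1.44 for Nt5e in FAPi replicate 4 and -1.33 for Cd44 in FAPi replicate 4. The spread among replicates, as the biological coefficient of variation fitted by edgeR, was 0.381 for Eng, 0.397 for Cd200, 0.431 for Ly6a, 0.481 for Cd44 and 0.598 for Nt5e, against a median of 0.593 over all tested genes. On this fitted measure Eng, Cd200, Ly6a and Cd44 varied less than most tested genes did, at percentiles 10.7, 13.7, 20.1 and 29.8, and Nt5e was near the median. Those 4 genes were also abundant, at percentiles 82.7 to 91.5 of level per length, and were not compared with genes of like level.

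**Figure D4:**
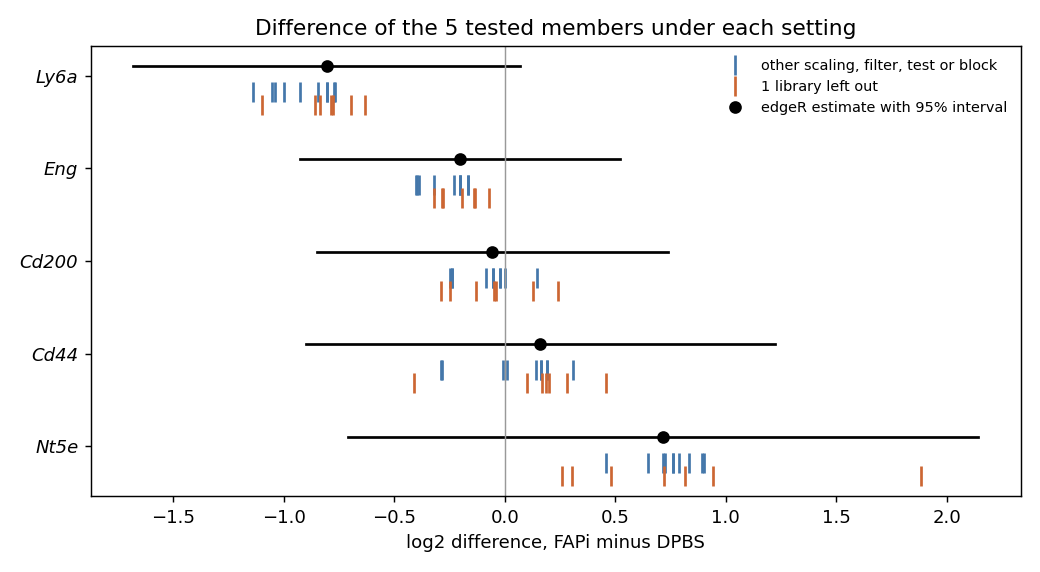
Log2 difference, FAPi minus DPBS, of the 5 tested markers, with the edgeR estimate (black point) and its 95% interval (black line), the values under other scalings, filters, tests or the replicate block (blue marks) and those with 1 library left out (orange marks). All 5 intervals include 0, Ly6a keeps negative values from -1.14 to -0.63 under every setting drawn, and Cd44 and Cd200 have marks on both sides of 0.

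Of the 10 markers, 0 were called higher and 0 lower at an adjusted p of 0.05. The edgeR test called 0 of the 12930 genes in either direction (0%), with 1053 (8.14%) at an unadjusted p below 0.05 and a smallest adjusted p of 0.0989. DESeq2 called 84 genes higher (0.65%) and 51 lower (0.394%), and none of the markers was among them. The estimates were negative for Ly6a, Eng and Cd200 and positive for Nt5e and Cd44, and the median of all tested genes was 0.01. All 5 intervals included 0. For Ly6a the interval reached a difference of -1.68 and for Nt5e one of 2.14, so that at this number of libraries neither a difference nor its absence was shown.

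**Figure D5:**
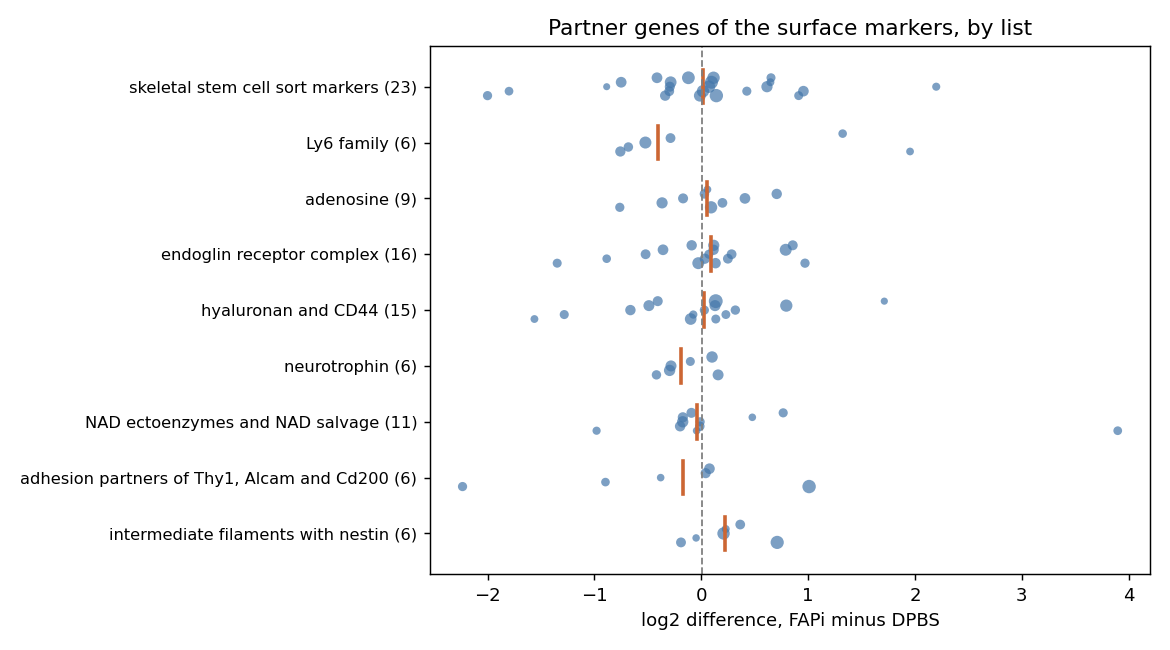
Log2 difference, FAPi minus DPBS, of the tested genes in 9 lists of partner genes, with the number tested in brackets. Each point is a gene, larger for higher mean CPM, orange bars are list medians and the dashed line is the median of all tested genes, 0.01; the median of 6 Ly6 family genes is -0.41 and no gene passes the edgeR test.

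Genes that work with these markers were read in 9 lists, 153 genes, of which 151 were in the tables, 31 had no counts and 98 were tested. The edgeR test called 0 of the 98, with 8 at an unadjusted p below 0.05, a share close to the 8.14% of all tested genes. DESeq2 called 0 as well and gave no adjusted p for 4. Estimates were higher in FAPi for 50 and lower for 48. Groups did not overlap for 3 genes that were lower in FAPi libraries and for 6 that were higher, where the shares over all tested genes were 3.94% and 3.4%.

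Other markers used to sort skeletal stem cells were represented by 24 genes, of which 23 were tested, 12 with a higher and 11 with a lower estimate and a median of 0.02. Lepr, the leptin receptor, averaged 1485 ± 228 CPM in DPBS and 1639 ± 222 CPM in FAPi libraries, and Vcam1, an adhesion protein of stroma and macrophages, 947 ± 133 and 1012 ± 156 CPM. The largest separations were in less abundant genes. Cd248 (endosialin, a fibroblast and pericyte glycoprotein) had 29.1, 12.9 and 27.6 CPM in DPBS and 4.00, 10.1, 5.11 and 4.03 CPM in FAPi libraries. Every FAPi value was below the DPBS values, with a log2 difference of -2.00 ± 0.58 (SE, edgeR adjusted p = 0.483). Anpep, which encodes the peptidase CD13, had 0.946 to 2.05 CPM in DPBS and 3.09 to 9.28 CPM in FAPi libraries, a log2 difference of 2.20 ± 0.89 (SE, edgeR adjusted p = 0.563). CD13, like CD73, CD90 and CD105, is a marker of cultured stromal cells, and its gene was estimated in the direction opposite to Cd248.

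In the Ly6 family, the relatives of Ly6a, 22 genes were listed, 20 were in the tables, 10 had no counts and 6 were tested. Estimates were lower for 4 and higher for 2, with a median of -0.41. Ly6e, a widely expressed member, had 279, 335 and 413 CPM in DPBS and 223, 381, 153 and 197 CPM in FAPi libraries. FAPi replicate 2 lay inside the DPBS range and the other FAPi libraries below it (log2 difference -0.52 ± 0.32, SE, edgeR adjusted p = 0.714), and without FAPi replicate 2 the difference was -0.86. Ly6k, better known in testis, had 0.946 to 1.34 CPM in DPBS and 13.4 CPM in FAPi replicate 4, with 1.04 to 2.19 CPM in the other FAPi libraries, so its difference of 1.95 was 0.40 without that library. Ly6d, a gene of B-lineage progenitors, reached 132 CPM in DPBS replicate 2 and 84.0 CPM in FAPi replicate 1 and was at most 16.8 CPM elsewhere. Vpreb3, a B-lineage gene, was at 136 and 133 CPM in the same libraries and at most 20.3 CPM in the others, and its relation to Ly6d was not tested.

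For Nt5e, 17 genes of extracellular nucleotide and adenosine handling were listed, and 9 were tested, with 6 estimates higher, 3 lower and a median of 0.06. The adenosine receptor genes Adora1, Adora2b and Adora3 had no counts. The nucleoside transporter Slc29a1 was the most abundant, at 406 ± 61.3 CPM in DPBS and 433 ± 30.9 CPM in FAPi libraries. Its lysosomal relative Slc29a3 had 31.7 ± 15.3 and 51.8 ± 14.3 CPM (log2 difference 0.71 ± 0.44, SE, edgeR adjusted p = 0.716), a difference that was 0.40 without DPBS replicate 2 and 1.11 without DPBS replicate 3. The ectonucleotidase Entpd2 differed by -0.76 ± 0.59 (SE, edgeR adjusted p = 0.785). Alpl, a phosphatase of osteoblasts that can also produce adenosine, was 256 CPM in DPBS replicate 3 and 44.7 to 117 CPM in the other libraries.

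The receptor complex of endoglin was listed as 18 genes, 16 of them tested, with 10 estimates higher and 6 lower and a median of 0.09. Gdf2 and Bmp10, the genes of its ligands BMP9 and BMP10, had no counts. Tgfbr3 encodes betaglycan, the co-receptor related to endoglin. It had 207, 168 and 186 CPM in DPBS and 461, 247, 322 and 264 CPM in FAPi libraries, where all 4 values were above the DPBS values. The log2 difference was 0.79 ± 0.28 (SE, edgeR adjusted p = 0.512), with the opposite sign to the estimate of Eng. Smad5, a mediator of BMP signals, had 19.8 ± 6.35 and 35.9 ± 13.0 CPM (edgeR adjusted p = 0.669). Mmp14, a membrane protease that releases endoglin, had 264 ± 137 and 259 ± 43.4 CPM, with means that differed by less than either SD.

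Hyaluronan synthesis, breakdown and the partners of CD44 were listed as 19 genes, and 15 were tested, 8 with a higher and 7 with a lower estimate and a median of 0.03. Adam10, a protease that cleaves CD44 at the cell surface, had 193, 307 and 318 CPM in DPBS and 408, 715, 380 and 393 CPM in FAPi libraries. No FAPi value lay within the DPBS range (log2 difference 0.80 ± 0.31, SE, edgeR adjusted p = 0.547), and without FAPi replicate 2 the difference was 0.52. Msn, or moesin, which ties CD44 to actin, had 56.5 ± 19.7 and 35.7 ± 9.39 CPM (edgeR adjusted p = 0.713). The CD44 ligand osteopontin (Spp1) was the most abundant gene of the list, at 3017 ± 578 and 3316 ± 929 CPM.

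Partners of the adhesion markers included 13 genes, of which 6 had no counts, among them Cd6, which binds Alcam, and the receptor gene Cd200r1. Of the 6 tested, Sdc4 (syndecan-4, a proteoglycan through which cells bind Thy1) had 997, 1160 and 1129 CPM in DPBS and 1439, 3163, 2081 and 2140 CPM in FAPi libraries. Each FAPi library exceeded each DPBS library, and the log2 difference was 1.01 ± 0.27 (SE, edgeR adjusted p = 0.469), the smallest edgeR p of the genes named here. Itgam, the integrin chain of myeloid cells, was 64.2 CPM in DPBS replicate 1 and 3.47 to 5.69 CPM elsewhere, and its difference of -2.24 became 0.44 without that library. In that library the pan-leukocyte sum was 40.6 CPM, the lowest of the DPBS group, while the neutrophil sum was 1768 CPM. Neutrophil sums were 2627 and 609 CPM in DPBS replicates 2 and 3 and 187 to 631 CPM in FAPi libraries. The relation of these sums to Itgam was not tested. Itgb5 had 56.5 ± 9.64 and 59.6 ± 23.6 CPM.

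For the 3 markers without counts, partner genes were present. Around Ngfr, 16 neurotrophin genes were listed, of which 5, including Bdnf and Ntf3, had no counts and 6 were tested, with a median of -0.19. Maged1 and Bex3, whose proteins bind the CD271 receptor inside the cell, had 142 ± 28.9 and 101 ± 55.6 CPM in DPBS and 115 ± 32.3 and 83.4 ± 14.5 CPM in FAPi libraries, and Rtn4 (Nogo) had 134 ± 41.9 and 144 ± 39.9 CPM. None of them passed. Around Bst1, 11 of 12 NAD genes were tested, 3 with a higher and 8 with a lower estimate and a median of -0.04. Nnmt, which methylates nicotinamide, had 134 ± 9.17 and 119 ± 33.7 CPM. Nmrk1, a nicotinamide riboside kinase, was at 96.8 CPM in DPBS replicate 1 and 108 CPM in FAPi replicate 1 and at most 26.8 CPM in the other libraries. Sarm1, an NAD-cleaving enzyme known from axons, was 49.3 CPM in FAPi replicate 3 and at most 2.25 CPM elsewhere, and its log2 difference of 3.90 was 0.90 without that library. Sirt1, an NAD-dependent deacetylase, was 15.6 CPM in DPBS replicate 1 and at most 5.15 CPM elsewhere. Around Nes, 6 of 12 intermediate filament genes were tested, with a median of 0.22. Vimentin (Vim), the usual filament partner of nestin, had 424 ± 27.2 and 490 ± 85.6 CPM, and Lmna, the gene of the nuclear lamins A and C, 933 ± 241 and 1528 ± 344 CPM (log2 difference 0.71 ± 0.27, SE, edgeR adjusted p = 0.534). The other 4 tested genes of the list were less abundant, with means over all libraries of 22.7 CPM for Des, 25.8 for Synm, 2.26 for Lmnb1 and 3.82 for Lmnb2. Gfap, Ina, Prph and the neurofilament genes Nefl and Nefm had no counts, like Nes.

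The labelled cell type was checked with 14 stromal marker genes, all of which were read and tested. Their summed level was 79830 to 92298 CPM in DPBS and 93017 to 95787 CPM in FAPi libraries, without overlap on the TMM scale, and Igfbp5 and Cxcl12 led it with means of 53104 and 18221 CPM in DPBS. On total counts alone the DPBS and FAPi means were 90421 and 89593 CPM. Osteoblast markers summed to 16260 to 25147 and 13783 to 24420 CPM, led by Ibsp, with Sost at 0. Pericyte and smooth muscle markers summed to 387 to 425 CPM in DPBS and 307 to 516 CPM in FAPi libraries with Cnn1 at 0, and Schwann cell markers to 304 to 464 and 278 to 501 CPM, mostly from Pmp22 and S100b. B-lineage markers summed to 620 to 1128 and 752 to 1209 CPM, mostly from Ebf1, a factor that stromal cells also express, with Cd22 at 0. Macrophage markers summed to 829 to 1076 and 795 to 1138 CPM, nearly all from Vcam1, with Marco at 0. Pan-leukocyte markers summed to 40.6 to 147 CPM and 22.9 to 137 CPM, and T and NK cell markers to 2.94 to 20.2 CPM and 2.63 to 23.3 CPM in DPBS and FAPi libraries. Transcripts of gated-out blood cells were thus present, and the sums were larger for erythroid and neutrophil markers. Erythroid markers summed to 1667 to 15176 and 1550 to 3080 CPM, and neutrophil markers to 609 to 2627 and 187 to 631 CPM. The source of this RNA was not tested.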

How the data were processed

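RNA of 7 sorted stromal samples, 3 DPBS and 4 FAPi, was read with a modified Smart-seq2 method and paired 150-base reads, per the labels' protocols. The authors deposited whole-number counts and CPM values per gene and library. STAR, HTSeq and build mm10 are named without versions in the submitters' processing notes; the sources used here do not give the annotation or the strand setting. The deposited CPM equals the count as a share of the library total (largest deviation 4.55e-05 CPM). The last 2318 to 2340 lines stand repeated in 6 of the 7 CPM tables, where each gene's first line was kept. Symbols and coordinates come from GENCODE M21, which matched 53620 of 53801 gene IDs, and promoter sequences from RefSeq.

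Counts were fitted in R 4.3.3 with edgeR 4.0.16 (filterByExpr by group with a minimum count of 10, TMM scaling, robust quasi-likelihood test, Benjamini-Hochberg adjustment over the 12930 tested genes, threshold 0.05), a method tested on simulated data. Standard errors are the log2 difference divided by the square root of F. The alternatives were other scalings and filters, DESeq2 1.42.0, limma 3.58.1 (voom with sample weights, or log2 of deposited CPM plus a pseudocount of 1 or 0.5), a replicate block, each library left out in turn, a threshold of 0.1 and another gene length. Marker sums on total counts, and levels and sums with a library left out, were added after seeing the data. The 10 markers and the lists were chosen with earlier results of these data known. From each of the 9 partner lists the text names the 2 tested genes with the smallest p and the 2 with the highest CPM. From each of the 13 cell type lists it draws on the 2 with the highest CPM and those at 0. Of the listed symbols, 3 were not in the tables. Some listed genes are not reported here.

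Replicates are separate mice by the series' design. Replicate numbers are shared between the groups, but deviations of same-numbered libraries correlated at 0, -0.016 and -0.049 across genes, so the numbers were not taken as pairs. The deposited counts are labelled rmdup, a name for the removal of duplicate reads, and the effect of that removal on the levels was not tested. The level of 3 counts covers counting error only, since without molecular identifiers the remaining amplified reads cannot be shown to be independent molecules.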

Additional observations from a re-analysis of the deposited data

Results flagged for a closer look

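In the FAPi group of 4 libraries, each marker, named partner gene and marker sum was checked for 1 library that stood apart from the other 3 by Dixon's criterion at the 95% level. Of 49 values checked 8 were marked. The rate of 1 in 20, or 2.45 of 49, holds for independent, normally distributed values. CPM was used here without a log, and some partner genes were named for a small p in these same data. The 8 marks therefore cannot be read as more than chance would give. None of the 10 surface markers was among them.

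Among partner genes, Ly6k was 13.4 CPM in FAPi replicate 4 against 1.04 to 2.19 CPM in the others, and Ly6d was 84.0 CPM in FAPi replicate 1 against 3.74 to 16.4 CPM. Adam10 was 715 CPM in FAPi replicate 2 against 380 to 408 CPM, so the protease that cleaves CD44 was high in 1 library of a group whose other 3 libraries were also above DPBS. Sarm1 was 49.3 CPM in FAPi replicate 3 against 1.29 to 2.25 CPM, and Nmrk1 was 108 CPM in FAPi replicate 1 against 13.5 to 26.8 CPM.

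Among cell type sums, the Schwann cell markers were lowest in FAPi replicate 2, at 278 CPM against 466 to 501 CPM. The neutrophil markers were lowest in FAPi replicate 4, at 187 CPM against 568 to 631 CPM. The T and NK cell markers were highest in FAPi replicate 3, at 23.3 CPM against 2.63 to 3.48 CPM. The part of these libraries in the differences of the surface markers was not tested beyond leaving each library out.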

How the results depend on the processing

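No surface marker and no partner gene was called under any of the alternative fits or with any library left out. Over all tested genes the count of calls moved from 0 to 5 higher and 1 lower without the low-count filter, to 84 higher and 51 lower with DESeq2 (663 genes without an adjusted p), to 1 higher with voom, to 2 higher with limma on CPM at either pseudocount and to 1 higher at a threshold of 0.1. Leaving out 1 library gave between 0 and 2 genes higher and between 0 and 1 lower, with calls where DPBS replicate 3 was the one omitted. Cause was not tested for any of these moves.

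The difference of Ly6a ranged from -1.14 to -0.77 over alternatives (adjusted p 0.524 to 0.866) and from -1.10 to -0.63 over left-out libraries. Nt5e ranged from 0.46 to 0.90 and from 0.26 to 1.88, and Eng from -0.40 to -0.17 and from -0.32 to -0.07. Scaling by total count moved the median of all genes to -0.16, and limma on CPM to -0.17 and -0.18. Against that shift, the Cd44 difference reversed to -0.0072 on total counts and to -0.28 and -0.29 with limma on CPM, and ranged from -0.41 to 0.46 over left-out libraries. Cd200 reversed to 0.15 with the replicate block and ranged from -0.29 to 0.24. Sirt1 reversed to 0.037 with the block and ranged from -1.41 to 0.65, Bex3 ranged from -0.58 to 0.24 and Itgam from -2.74 to 0.44. With the replicate block 718 genes had an unadjusted p below 0.05, against 1053 without it, and 0 were called.

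On total counts, Eng joined Ly6a without overlap, 2 markers lower in FAPi libraries, where 6.19% of tested genes were lower without overlap. With a library left out the count without overlap was 1 to 2 lower (Alcam, itself not among the tested genes, joined without DPBS replicate 2, a setting in which 7.15% of them were lower) and 0 to 1 higher (Nt5e without DPBS replicate 1, a setting in which 7.64% were higher). The longest transcript as length gave 39.1 RPKM for Cd200 and 27.9 for Nt5e. On total counts the FAPi mean of the stromal sum was 89593 CPM and the DPBS mean of the pericyte sum 438 CPM. Thy1 and Alcam had 37 and 59 counts in all, and no difference was detected for them. What difference could be detected at such counts was not tested.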
